A study of Ginkgo biloba with 2 samples.

Results

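The names miR1215, miR5301 and miR6118 are 3 of the 723 known microRNA (miRNA) names in tables of small RNA from leaves of Ginkgo biloba, a gymnosperm tree with separate female and male plants. They were chosen by their read counts, which were high in both libraries, so their levels are given as a description and not as a finding. There were 2 libraries, 1 from mature leaves of female trees and 1 from mature leaves of male trees, all about 30 years old and grown under natural conditions, with no treatment named. Whether 1 tree or several gave a library was not given in the sources used here, and with 1 library per sex no difference between the sexes was tested. The library totals, worked out here from read counts and scaled levels, were 13193290 female and 12137619 male reads. Known names took 18.7% of the female and 20.2% of the male total.

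A plant miRNA is cut from a hairpin precursor as a duplex of a guide strand and its near complement, the opposite arm. The guide is loaded into an ARGONAUTE protein, most often when it begins with U, and directs the cleavage or repression of transcripts to which it pairs closely along its length. Length also matters in plants, since miRNAs a base longer than the common length can start the production of secondary small RNAs from their targets. The miR482 and miR2118 families are known for this at transcripts of NBS-LRR disease resistance proteins, receptors of plant immunity. No target is annotated for miR1215, miR5301 or miR6118 in the files used here, so none of the 3 is given a function.

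The sequence listed for each of the 3 names is the base of every comparison below, and is printed with T for U, 5′ to 3′, with bases 2 to 8, the seed, in capitals.
miR1215, both libraries: tCATTGAAaactgctttaga
miR5301, both libraries: tGTGGGAGgcgtggaaaga
miR6118, female library: tCTTACCGacgccacccattccaa
miR6118, male library: tTACCGACgccacccattcctc

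The 3 names had no seed in common, and no other known name in either library had the seed of any of them. Of all known names, 10.2% of the female and 9.4% of the male ones shared their seed with another name. miR1215 and miR5301 were listed with 1 sequence each in both libraries. miR6118 was listed with 24 bases in female and 22 bases in male leaves. These forms shared a stretch of 20 bases, shown here in capitals.
miR6118, female library, shared stretch: tcTTACCGACGCCACCCATTCCaa
miR6118, male library, shared stretch: TTACCGACGCCACCCATTCCtc
The male form began 2 bases further in, so the name had another seed in each library. Counted from 1 at the 5′ end of the female form, the last 2 bases differed as A23T and A24C. What made the authors list a given sequence, and whether its count takes in other reads of that name, was not given in the sources used here.

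miR1215 had 264560 reads in the female library, a level of 20053 RPM (reads scaled to 1000000 reads of the library), against 297034 reads and 24472 RPM in the male library. miR5301 had 103400 reads and 7837 RPM in the female library, against 86029 reads and 7088 RPM in the male library. miR6118 had 35582 reads and 2697 RPM in the female library, against 37122 reads and 3058 RPM in the male library. In both libraries miR1215 was thus the highest of the 3 and miR6118 the lowest, and miR5301 alone had the higher level in the female library. A read is 1 small RNA, so these levels are not scaled by length.

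By level, miR1215 ranked 2 among the known names of the female library and likewise of the male library, behind miR166, the family directed at class III HD-ZIP transcription factors. miR5301 ranked 4 in female and 5 in male leaves, and miR6118 ranked 9 and 8. Only 6 names were among the 10 highest of both libraries, the 3 names and miR166, miR535 (directed at SPL transcription factors) and miR1083. The choice of the 3 names had no stated minimum. The name next below miR6118 was miR397, a regulator of laccases, at 2421 RPM in the female library, and miR8142 at 2990 RPM in the male library. The name next above it was miR1220 at 2916 RPM in the female library and miR1314 at 3136 RPM in the male library.

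**Figure D1:**
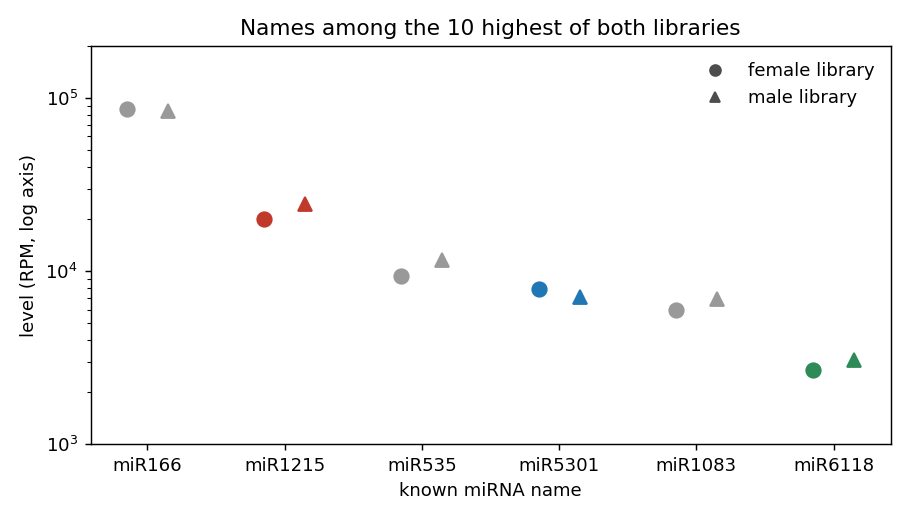
Level in RPM on a log axis (vertical) of the 6 known names that were among the 10 highest of both libraries (horizontal), with a circle for the female and a triangle for the male library and miR1215, miR5301 and miR6118 in colour. In each library miR1215 stands between miR166 and miR535, at 20053 RPM in female and 24472 RPM in male leaves, and miR6118 is the lowest of the 6.

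miR1215 took 10.7% of the known miRNA reads of the female library (exact 95% binomial interval 10.68 to 10.76%) and 12.1% of those of the male library (12.10 to 12.18%). miR5301 took 4.19% in the female (4.17 to 4.22%) and 3.52% in the male library (3.49 to 3.54%). miR6118 took 1.44% in the female (1.43 to 1.46%) and 1.52% in the male library (1.502 to 1.533%). Together the 3 names took 16.4% of the known reads in female and 17.2% in male leaves. Without the reads of miR166 in the total, these shares were 30.4% and 29.5%. Reads without molecular identifiers are not independent molecules, so all intervals here hold counting error alone.

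The proportions of the 3 names within a library do not depend on how the libraries are scaled. miR1215 had 2.56 times the reads of miR5301 in the female library (exact 95% interval 2.54 to 2.58) and 3.45 times in the male library (3.43 to 3.48). miR5301 had 2.91 times the reads of miR6118 in the female (2.87 to 2.94) and 2.32 times in the male library (2.29 to 2.35). miR1215 had 7.44 times the reads of miR6118 in the female (7.35 to 7.52) and 8.002 times in the male library (7.92 to 8.09). miR5301 thus held a larger part relative to both of the others in the female library, beyond counting error but without a replicate.

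The female over male ratio of the levels was 0.819 for miR1215 (exact 95% interval 0.815 to 0.824), 1.11 for miR5301 (1.10 to 1.12) and 0.882 for miR6118 (0.869 to 0.895). As log2 of (female RPM + 1) over (male RPM + 1) these were -0.29, 0.15 and -0.18. All 3 lay within 2-fold, whereas 62.5% of the 232 names that reached 10 RPM in either library were 2-fold or more apart. Of the 18 names that reached 1000 RPM in each library, a limit chosen after the data were seen, 2 names (11.1%) were 2-fold or more apart, and the 18 include the 3. Among the 96 of the 232 names whose listed sequence was identical in both libraries, as for miR1215 and miR5301, the share was 27.1%. The rule asked for high levels in both libraries, which bears on the ratio, so nothing is read from these counts about the 3 names.

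The direction of small ratios depended on the scaling. The 117 names that reached 10 RPM in each library had a median log2 ratio, female over male, of -0.23. Scaled by that median, the log2 ratio of miR6118 turned to 0.0484, that of miR1215 came to -0.0575 and that of miR5301 to 0.37. miR5301 was higher in female and miR1215 in male leaves under each scaling tried. The ratio of miR6118 also sets 2 different listed sequences side by side, and the part of this in it was not tested.

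**Figure D2:**
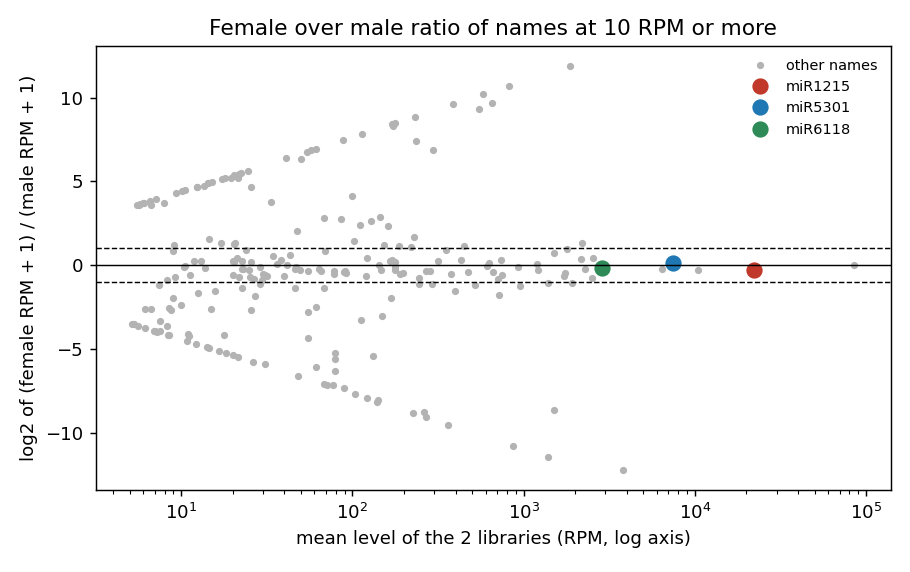
Log2 of (female RPM + 1) over (male RPM + 1) (vertical) against the mean level of both libraries in RPM on a log axis (horizontal) for 232 known names that reached 10 RPM in either library, with dashed lines at 2-fold. miR1215 (-0.29), miR5301 (0.15) and miR6118 (-0.18) lie between the dashed lines at the high end of the levels.

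The names nearest in level, by Euclidean distance of log2(RPM + 1) over the 2 libraries, stood close to miR5301 and miR6118 but not to miR1215. For miR5301 it was miR1083, at 5964 RPM in female and 6918 RPM in male leaves (distance 0.40). For miR6118 it was miR168, the regulator of an ARGONAUTE protein, at 2107 RPM in female and 2477 RPM in male leaves (distance 0.47). For miR1215 it was miR535, at 9384 RPM in female and 11552 RPM in male leaves (distance 1.54). With 2 libraries such a likeness says only that the levels were near.

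None of the 3 names had the 21 bases that most known names had (295 of 530 names in female and 301 of 532 in male leaves). miR5301, with 19 bases, held 83.0% of all known reads of that length in female and 82.3% in male leaves. It was 1 of 37 female and 1 of 31 male names with 19 bases. miR1215, with 20 bases, held 53.4% of the known reads of its length in female and 69.8% in male leaves, as 1 of 74 and 1 of 60 names. miR6118 held 60.4% of the reads of 24-base names in the female library, as 1 of 32 names, and 22.4% of those of 22-base names in the male library, as 1 of 51. These shares rest on the read counts by which the 3 names were chosen, so they too are only a description. All 3 sequences began with T in both libraries. So did 266 of 530 names in the female library, with 87.7% of the known reads, and 275 of 532 in the male library, with 89.8%.

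**Figure D3:**
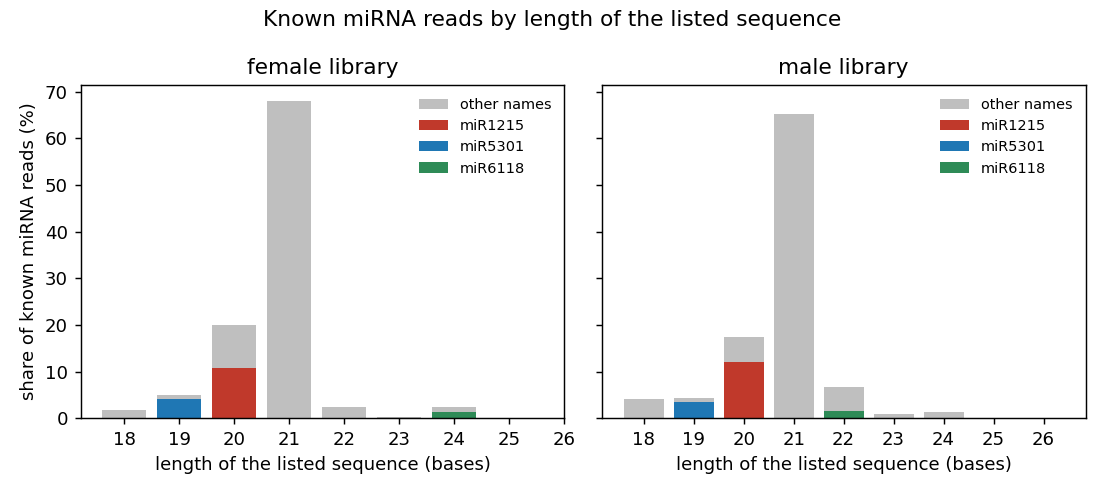
Share of known miRNA reads in percent (vertical) by length of the listed sequence in bases (horizontal), for the female (left) and the male library (right), with the parts of miR1215, miR5301 and miR6118 in colour. The colours are absent from the tall bar at 21 bases. They fill 83.0% of the 19-base bar of the female library and 82.3% of that of the male library, and the part of miR6118 stands at 24 bases in female and 22 bases in male leaves. The names were chosen by read counts, so the heights of the coloured parts are a description.

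In base composition the 3 names stood on both sides of the median. G and C made up 30% of miR1215, with a median of 42.9% over all names in each library, and 51 of 530 female and 56 of 532 male names were lower. They made up 57.9% of miR5301, and 54.2% of the female and 59.1% of the male form of miR6118. For miR5301, 478 names were lower in female and 480 in male leaves.

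miR1215 had 1 neighbour within 5 edits, and it was found in the female library only. In that library miR5063 was 4 edits away (edits are substituted, inserted or deleted bases), with 49404 reads and 3745 RPM, and it had no read in the male library, where 3 reads would be 0.247 RPM. The pair is shown with identical facing bases in capitals.
miR1215, facing miR5063: TCATtGAAAACtGCTTTAGa
miR5063, female library: TCATgGAAAACgGCTTTAGct
Of 20 facing bases 17 were identical. Counted from 1 at the 5′ end of miR1215, miR5063 differed by T5G, T12G and A20C, of which the first lies in the seed. A neighbour within 5 edits was found for 61 of 530 female names (11.5%) and 65 of 532 male names (12.2%). Of these 530 and 532 names 339 were found in both libraries, so absence from 1 library was common over all names. Their median was only 21 reads for female and 20 reads for male leaves. miR5063 ranked 6 among the female names, so that count does not describe names at its level. No other name among the 10 highest of the female library lacked male reads. Among the 10 highest male names, miR5766, at 2771 RPM, had no female read. Among the male sequences the nearest to miR1215 was that of miR6021, a name with 1 read, at 7 edits. The median distance of a name to its nearest other name was 7 edits in each library.

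The reverse complement of miR5301 resembled the sequences of miR8036 and miR1448, the second of which is among 8 names taken as the miR482 superfamily, directed at NBS-LRR transcripts in other seed plants. Its reverse complement could be placed inside the sequence of miR8036 with 3 edits in both libraries, and inside that of miR1448 with 3 edits in the female library. miR8036 stood at 77.2 RPM in female and 101 RPM in male leaves, and miR1448 had 41 female reads. The sequences are shown with the longest shared stretch, 10 bases, in capitals.
miR5301, reverse complement: tctttccACGCCTCCCAca
miR8036, both libraries: atggtctttcctACGCCTCCCA
miR1448, female library: cttttcctACGCCTCCCAtacc
By this measure 8 of 530 female names (1.51%) and 6 of 532 male names (1.13%) had another name within 3 edits. In the male library miR1448 was listed with another sequence, of 19 bases, which shared 7 bases with the reverse complement of miR5301 and needed 6 edits. The measure of placing one sequence inside another was chosen after the data were seen. By edits over the whole length, the nearest names to the reverse complement of miR5301 in the female library were miR1448 (6 edits) and miR6118, miR482, miR8036 and miR472 (7 edits each). In the male library they were miR482, miR1448, miR8036 and miR472, with 7 edits each. The median distance of a name to the nearest reverse complement was 8 edits in each library. Within 6 edits, 6.79% of female and 5.45% of male names had such a name, and within 7 edits 32.1% and 21.4%.

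On its listed strand miR5301 was nearest to miR2118 in both libraries, at 6 edits, and shared with it a stretch of 8 bases.
miR5301, stretch shared with miR2118: tGTGGGAGGcgtggaaaga
miR2118, both libraries: ggaGTGGGAGGgtcggagaaga
Another name within 6 edits was found for 25.3% of female and 26.7% of male names, so a neighbour at this distance was common. The sequences listed as miR2118 and miR482 each lay 5 edits from the reverse complement of another name in both libraries. Only 8 of 530 female and 5 of 532 male names lay within 5 edits in this way. The likeness of miR5301 to miR2118 is therefore not counted apart from that of its reverse complement to miR482.

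On the listed strand no name lay within 5 edits of miR6118. In the female library the nearest were miR482, miR1448 and miR5300, at 8 edits each, and miR5300 had 6 reads there. These 3 are names of the superfamily list, but their distance was above the median of 7. In the male library the nearest was miR3633 at 6 edits, which is not on that list, followed by miR472 at 8 and by miR482 and others at 9. The longest stretches that miR6118 shared with miR482 and miR3633, near the 3′ end of each, are in capitals.
miR6118, female library, stretch shared with miR482: tcttaccgacgccaCCCATTCCaa
miR482, both libraries: tttttccagatcctCCCATTCC
miR6118, male library, stretch shared with miR3633: ttaccgacgccaCCCATTCCTc
miR3633, male library: ttgcctatacctCCCATTCCTg
Without gaps, 15 of 22 facing bases of miR6118 and miR482 were identical in the female library and 14 of 20 in the male library. miR3633, at 12.3 RPM, was found in the male library only, and 16 of its 22 bases were those of miR6118. No background over all names is given here for facing bases or shared stretches, so neither is called unusual. A nearest name at 8 edits or fewer was usual, for 93.2% of female and 91.9% of male names. On opposite strands miR5301 and the female form of miR6118 were 7 edits apart, or 5 edits when one was placed inside the other, and miR2118 was as far from that form. Another name within 5 edits in this way was found for 21.7% of female and 14.1% of male names. Between miR5301 and the male form of miR6118 it was 10 and 7 edits.

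**Figure D4:**
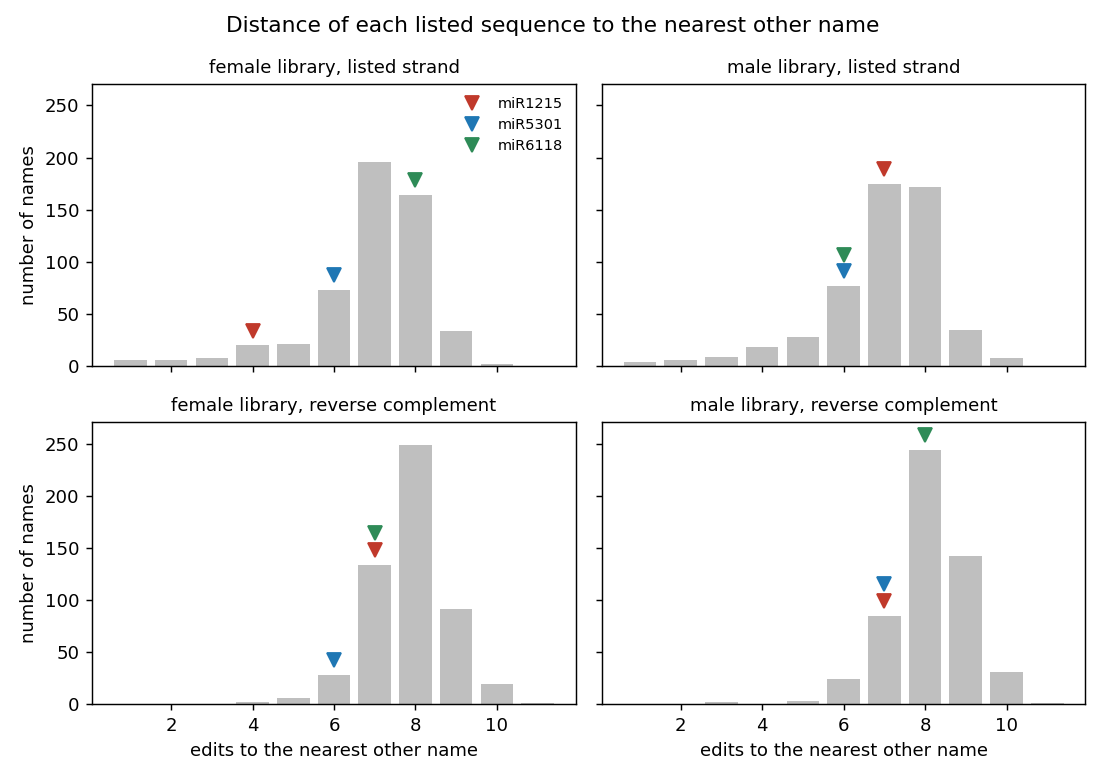
Number of known names (vertical) by edits to the nearest other name (horizontal), on the listed strand (top) and against the reverse complement (bottom), in the female (left) and the male library (right), with triangles above the bars of miR1215, miR5301 and miR6118. On the listed strand miR1215 stands at 4 edits in female and at 7 in male leaves, and miR5301 stands at 6 edits in both, and against the reverse complement miR5301 stands at 6 edits in female and 7 in male leaves.

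miR5301 and miR6118 were chosen by their high read counts, so other names were mostly lower, and the gaps given here are only a description. Over all names found, the median level was 1.59 RPM for female leaves and 1.65 RPM for male leaves. The names of the miR482 superfamily were far lower than miR5301 and miR6118. Of the 8 names of that list 7 were analysed here, with a summed level of 872 RPM in female and 1112 RPM in male leaves. miR482 stood at 572 RPM in female and 757 RPM in male leaves. miR6118 had 4.72 times its reads in the female (exact 95% interval 4.60 to 4.84) and 4.04 times in the male library (3.95 to 4.14), and miR5301 had 13.7 times (13.39 to 14.03) and 9.37 times (9.17 to 9.57).

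miR1510 and miR5300 were below 10 RPM in both libraries. Of the 5 superfamily names that reached 10 RPM in either library, 1 was 2-fold or more higher in the female library, where 29.3% of all 232 names were, and 2 in the male library, where 33.2% of all were. The name higher in the female library was miR1507, at 150 RPM in female and 21.3 RPM in male leaves. Those higher in the male library were miR472, at 0.985 RPM in female and 34.6 RPM in male leaves, and miR1448, at 3.11 RPM in female and 155 RPM in male leaves. Each of these 3 had different listed sequences in the libraries, whereas the 29.3% and 33.2% are over names with identical and different sequences alike. miR482 and miR2118, with 1 sequence each, lay within 2-fold. This was usual, since only 27.1% of the 96 tested names whose sequence was identical between libraries were 2-fold or more apart. Over the 5 names the log2 ratio, female over male, had a median of -0.40, and over the 232 names -0.27.

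Predicted targets were listed for all 3 names, and the 3 lists had no target in common in either library. Only 35.5% of names with targets in female and 36.2% in male leaves shared a target with any other known name. A lack of overlap between lists was therefore usual. The targets are predictions from the sequence, so they follow it by construction. miR5301 had 29 listed targets in each library, the same 29, and miR1215 had 15 in each, the same 15. miR6118 had 1 in female and 2 in male leaves, with Unigene11944 in both and Unigene15694 in the male list only. The median over all names with targets was 3 in each library. More targets than for miR5301 were predicted for 10 of the 380 female names and 9 of the 340 male names, and more than for miR1215 for 36 and 35 names.

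**Figure D5:**
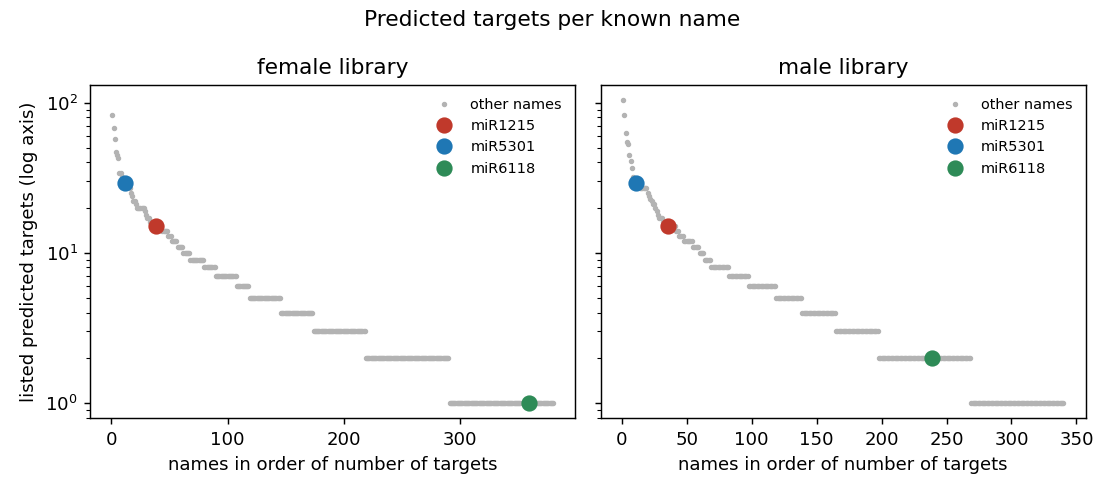
Number of listed predicted targets on a log axis (vertical) of known names in order of that number (horizontal), for the female (left) and the male library (right), with miR1215, miR5301 and miR6118 in colour. miR5301, at 29, and miR1215, at 15, stand near the high end in both libraries, and miR6118 stands at 1 target in female and 2 targets in male leaves.

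The lists differed in kind. Public nucleotide records made up 26 of the 29 targets of miR5301 (89.7%), against 22.9% of all listed targets in female and 24.8% in male leaves. The other 3 were Unigene1341, Unigene16518 and Unigene23977. Whether several of these records come from 1 transcript was not tested. Of the 15 targets of miR1215, 7 were single assembled unigenes, 7 were contigs of 4 assembly clusters and 1 was a public record.

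The targets of miR1215 were listed for other names more often in the male library, although its own list was the same. In the female library 3 of the 15 were also listed for another known name, 2 of them for miR5258 (Unigene23632 and Unigene23633) and 1 (CL5162.Contig1) for its near neighbour miR5063. In the male library 10 of the 15 were, 8 of them for miR1440, which had 15 targets. Over all names 18.9% of listed targets in female and 22.8% in male leaves were also listed for another known name. miR1440 was listed with another sequence in each library, at 0.834 RPM in female and 122 RPM in male leaves, and its male sequence was 9 edits from miR1215. The other names that shared targets with miR1215 in the male library were miR5258, miR6024 and miR6466, with 2 each.

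Of the predicted ginkgo miRNAs, 1 arm in each library had all of its 7 targets within the list of miR1215, FLGB-m0135_5p in female and MLGB-m0128_5p in male leaves. The 2 arms had the same 7 targets. Arms in the target tables carry other names than predicted miRNAs in the level tables, so no level is given for them.

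miR5301 shared 1 target with miR8036 and miR1448. Unigene16518 was listed for miR5301, miR8036 and miR1448 in both libraries. It was 1 of the 29 targets of miR5301, 1 of the 2 of miR8036, and 1 of 1 target of miR1448 in female and of 23 in male leaves. As shown above, miR8036 and the female form of miR1448 resembled miR5301 on the opposite strand. Where each was predicted to pair on Unigene16518 was not given, so no common site is implied. Unigene11944, the target of miR6118 in both libraries, was also listed for miR1448 in the male library, and for 3 predicted arms in the female library. Across names, 35.5% of those with targets in female and 36.2% in male leaves shared at least 1 target with another known name.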

How the data were processed

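The authors deposited, for each library, reads scaled to 1000000 (RPM) of known and of predicted miRNAs in tables whose names say TPM. Each known value was a whole number of reads over 1 library total, to within 5e-05 RPM. A second deposited table held raw read counts per known name beside 1 sequence. The deposited target tables held predicted target identifiers, with empty annotation fields. An aligner, a miRNA database and a target predictor were not given in the sources used here. Members and lists were chosen with earlier results of these data known.

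Read ratios carry exact 95% intervals (conditional binomial, Clopper-Pearson, SciPy 1.17.1). They were checked only on simulated reads drawn independently, as the interval assumes, so the check does not bear on reads that are not independent. Fold counts used log2(RPM + 1), names that reached 10 RPM in either library and a 2-fold threshold. Sequences were compared within each library by global edit distance (edlib 1.3.9), where 5 or fewer counted as near. No test between the sexes was made. Alternatives were library scaling by the known total or the median ratio, pseudocounts of 0.1 and 10, minimums of 0 and 100 RPM, a 1.5-fold threshold, and other share totals, edit limits, stretch lengths, strands and target tables. Names given are the 3 members, those nearest in sequence or level, the 10 highest, those next in rank, the miR482 list and names that share targets.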

Additional observations from a re-analysis of the deposited data

How the results depend on the processing

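No paired analysis was possible because each sex had 1 library. Scaled by the median ratio, the log2 female over male ratios were -0.0575 for miR1215, 0.37 for miR5301 and 0.0484 for miR6118, and scaled by the known total they were -0.18, 0.25 and -0.0733. With the reads of miR5063 added, an alternative chosen after the data were seen, that of miR1215 was -0.0403. This addition could only raise the ratio, since miR5063 had no male read. Pseudocounts of 0.1 and 10 moved none of the 3 beyond counting error. The 145 names 2-fold or more apart of 232 (62.5%) became 249 of 723 (34.4%) with no minimum and 66 of 111 (59.5%) at 100 RPM, and stayed between 132 and 167 otherwise. With predicted names in the total, the 3 names took 15.1% of the female and 16.04% of the male reads, and without miR166 30.4% and 29.5%. Near sequences of the 3 names together numbered 1 in female and 0 in male leaves. At 7 edits these became 3 and 5, and for reverse complements placed inside, a measure chosen after the data were seen, 6 and 2. In the female library shared stretches of 12 or 10 bases on the listed strand gave 0, and so did edits to the whole reverse complement. Of the targets, 4 female and 12 male ones were shared with other known names. With predicted arms included these were 11 and 15, and with the known lists of both libraries joined the number was 13. With 1 library per sex the spread between trees is unknown.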

Other observations

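miR1215 and its near neighbour miR5063 were also summed, a choice made after their values were seen. Together they had 23797 RPM in the female library and 24472 RPM in the male library, where all reads were those of miR1215. The female over male ratio of the sum was 0.972 (exact 95% interval 0.968 to 0.977, counting error only), and that of miR1215 alone was 0.819. The nearest sequence to miR5063 in the male library was that of miR1215, at 4 edits.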
